A study of Mus musculus with 50 samples.

Results

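The genes described here are Smad9 and 9 further genes of bone morphogenetic protein (BMP) signalling, 10 of the 24984 genes in the count files. They were chosen by name: the receptor SMADs Smad9, Smad1 and Smad5, the inhibitory SMADs Smad6 and Smad7, the ID genes Id1, Id2 and Id3, and the receptors Bmpr1a and Bmpr2. Smad9 was picked for its lower level in old than in young kidney and liver, so its values in those 2 comparisons are a description and are given without a test. All 10 genes passed the filter on low counts in every comparison. The study profiled RNA in 10 groups of C57BL/6 mouse samples, 38 libraries in all, and open chromatin by ATAC-seq in 4 groups of 3 libraries. Kidney and liver came from untreated mice, female per the study's methods, either young (2.5 months) or old (23 to 25 months), with 4 RNA libraries and 3 ATAC libraries a group. A further 4 RNA groups of 4 libraries held both organs from mice that had received DMSO or an agent labelled 3C at 20 to 21 months of age, and the last 2, of 3 libraries each, held P9 mice skin fibroblasts given DMSO or 3C. The labels do not say what 3C or P9 is, nor that the replicates were separate animals or cultures, so p-values measure the spread between these samples.

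BMPs are secreted ligands that bind a pair of type I and type II receptors at the cell surface, such as those encoded by Bmpr1a and Bmpr2. The activated receptor phosphorylates the receptor SMADs, which enter the nucleus with SMAD4 and switch on target genes. The ID genes, which encode inhibitors of DNA binding by helix-loop-helix factors, are among the most direct of these targets, as are Smad6 and Smad7, whose products feed back to inhibit the pathway. In the liver this pathway also controls Hamp, the gene of the iron hormone hepcidin, and in the kidney it acts in tubule development and in the response to injury.

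The receptor SMADs bind DNA at GC-rich elements such as GGCGCC, and SMAD4 binds near them at CAGAC. A composite of both, GNCGNC and GTCT with 5 bases of any kind between them, is a known form of BMP response element. The motifs were picked after earlier results of these data had been seen. The middle 300 bases of ATAC regions within 10 kb of the members held 7 matches to the composite at the ID genes. These are shown because the ID genes are the targets whose levels are described below. Capitals mark the 15 bases of the match, read 5′ to 3′ on the strand that carries it, with 10 bases of GRCm38 on each side. Distances are from the gene's nearest start site, which for Id2 is not the same one in both lines.
Id1, 1.04 kb before the start site (chr2:152735196-152735230, + strand): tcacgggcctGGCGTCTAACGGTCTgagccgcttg
Id1, 3.23 kb after it (chr2:152739461-152739495, + strand): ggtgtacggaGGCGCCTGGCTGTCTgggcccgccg
Id2, 1.72 kb before the start site (chr12:25098844-25098878, − strand): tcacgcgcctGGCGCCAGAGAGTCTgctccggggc
Id2, 3.04 kb after it (chr12:25093034-25093068, − strand): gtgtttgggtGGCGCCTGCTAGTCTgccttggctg
Id3, 2.95 kb before the start site (chr4:136140530-136140564, + strand): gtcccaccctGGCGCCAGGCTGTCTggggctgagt
Id3, 1.30 kb after it, in an intron of Id3 (chr4:136144783-136144817, + strand): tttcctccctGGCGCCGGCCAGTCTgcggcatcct
Id3, 4.49 kb after it (chr4:136147971-136148005, + strand): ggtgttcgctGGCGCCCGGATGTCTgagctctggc

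In 6 of these 7 sites the GC-rich part was GGCGCC itself, and the Id1 site before the start was the exception. The 6 sites other than the one inside Id3 lay between annotated genes. The promoter of Smad9 (RefSeq, GRCm38.p6, chr3:54755332-54755631, + strand) is shown because its ATAC peak was among those lower in old kidney. It runs from 250 bases before to 50 after the start site, with its single GGCGCC in capitals, and it held neither CAGAC nor the composite.
Smad9 promoter: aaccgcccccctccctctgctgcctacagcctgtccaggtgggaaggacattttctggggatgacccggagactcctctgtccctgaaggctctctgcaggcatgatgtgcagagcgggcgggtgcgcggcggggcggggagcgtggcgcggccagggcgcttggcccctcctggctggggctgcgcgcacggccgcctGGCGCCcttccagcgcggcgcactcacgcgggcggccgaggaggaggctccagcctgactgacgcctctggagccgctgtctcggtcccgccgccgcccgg

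Total counts in genes ranged from 14238228 to 43704147 a library. Levels are given as CPM, counts scaled to the library size with TMM factors over the 38 RNA libraries. The tissues carried their own markers: 5 hepatocyte genes summed to 130800 CPM or more in young and old liver, and 5 proximal tubule genes to 3892 CPM or more in young and old kidney. Old kidney replicate 2 stood apart, with a hepatocyte sum of 2562 CPM against 67.3 to 111 in the other old kidneys, so kidney age values that change a call are also given without it. With it 487 genes fell with age in kidney by the adjusted p alone, and without it 1770 did, while leaving out each other library gave from 138, without young kidney replicate 2, to 822, without young kidney replicate 4. In old kidney the summed markers of macrophages (102 to 130 CPM in young, 341 to 619 in old), of B and plasma cells (4.68 to 9.49 against 268 to 395) and of T cells (1.98 to 3.61 against 15.7 to 22.4) were higher, as were those of immediate early genes (125 to 157 against 185 to 222), and proximal tubule markers were lower. Endothelial markers overlapped between young (329 to 464 CPM) and old kidney (323 to 411). In liver the sums of B and plasma cell markers (6.62 to 9.31 CPM in young, 29.0 to 130 in old) and T cell markers (3.15 to 7.37 against 9.63 to 16.2) were higher in all old libraries, and macrophage sums were 558 to 859 against 799 to 1562. The part of these markers in the age values of the members, Hamp and the other genes was not tested. In bulk tissue fewer cells of a type and less RNA per cell cannot be told apart.

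Young liver had the highest level of Smad9, a receptor SMAD, with 28.3, 20.6, 24.8 and 17.6 CPM in its 4 libraries (22.8 ± 4.66, SD, n = 4). Old liver had 3.88, 7.05, 2.47 and 4.03 CPM (4.36 ± 1.93, SD, n = 4). All 4 old livers lay below all 4 young livers, and the fitted level was 5.13-fold lower. In kidney the young libraries had 4.23, 4.58, 2.52 and 2.94 CPM (3.57 ± 0.993, SD, n = 4). The old kidneys had 1.11, 0.965, 0.888 and 0.574 CPM (0.883 ± 0.225, SD, n = 4). These groups did not overlap either, and the fitted level was 3.91-fold lower in old kidney. Without old kidney replicate 2 the log2 fold change in kidney was −2.05 in place of −1.97.

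Across the 10 groups the highest mean level of Smad9 was 25.8 times the lowest, both in groups of the age comparisons it was chosen on. Liver given 3C (11.4 ± 10.3 CPM, SD, n = 4) and liver given DMSO (10.8 ± 5.15 CPM, SD, n = 4) followed young liver, each overlapping its neighbour in the order. Old liver, young kidney and fibroblasts given 3C came next, and old kidney came last. Of the 9 pairs of neighbours in this order 7 overlapped, and the 2 that did not were fibroblasts given 3C above kidney given DMSO, and kidney given 3C above old kidney. The young and old libraries and the DMSO and 3C libraries differed in how reads with several matches were tallied, so the order between those series is a description only.

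Smad1 and Smad5, which share the receptor SMAD role of Smad9, did not pass the test with age in edgeR with all libraries. Smad1 had a log2 fold change of 0.08 ± 0.15 (SE) in old kidney and of 0.32 ± 0.24 (SE) in old liver (edgeR adjusted p = 0.766 and 0.635). Old kidney had 10.5 to 14.1 CPM of Smad1 and young kidney 10.4 to 13.5, so these groups overlapped. Smad5 was at 66.9, 59.0, 58.4 and 40.2 CPM in young kidney. It was at 29.8, 48.2, 30.3 and 36.9 CPM in old kidney. Young replicate 4, at 40.2 CPM, lay under the highest old one, so the groups overlapped, and the log2 fold change of −0.55 ± 0.20 (SE) had an adjusted p of 0.105 in edgeR. The highest old library was replicate 2, the one that stood apart. Without it the old kidneys of Smad5 all lay below the young ones, and the log2 fold change was −0.74 (adjusted p = 0.0176). Smad5 also passed without young kidney replicate 4 and with DESeq2 (adjusted p = 0.0471 and 0.0416), each time under the fold threshold. In liver Smad5 had a log2 fold change of −0.01 ± 0.21 (SE, adjusted p = 0.998 in edgeR).

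**Figure D1:**
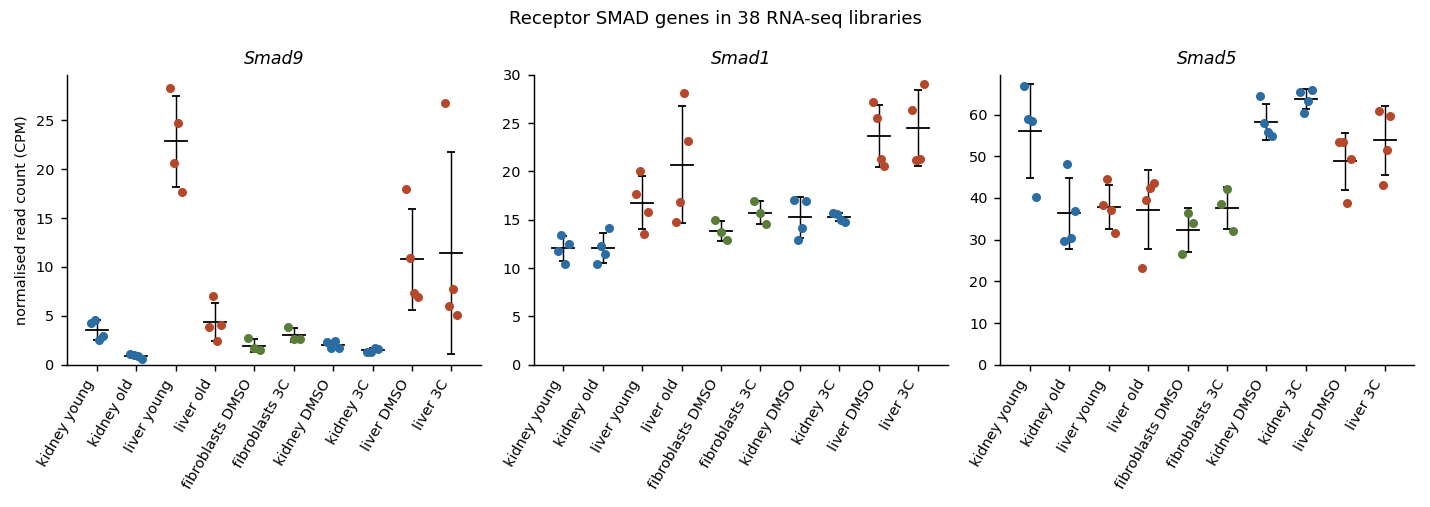
CPM of Smad9, Smad1 and Smad5 on linear axes from 0, with a point for each of the 38 RNA libraries and bars for the mean ± SD of each of the 10 groups. Young liver has 17.6 to 28.3 CPM of Smad9 and old kidney 0.574 to 1.11, while the highest mean of Smad1 is 2.03 times its lowest and that of Smad5 1.97 times.

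Per kilobase of transcript, the only scale on which levels of different genes can be set side by side, the makeup of the 3 receptor SMADs differed between groups. Smad9 held 29.4% ± 4.72 (SD, n = 4) of their summed level in young liver and 7.19% ± 3.51 (SD, n = 4) in old liver. In young kidney it held 5.33% ± 1.05 (SD, n = 4) and in old kidney 1.92% ± 0.686 (SD, n = 4). Smad5 held the largest share in kidney, 68.4% ± 5.53 (SD, n = 4) in the young. In young liver the 3 genes were closer to equal, with 39.8% for Smad5 and 30.8% for Smad1. Among all 10 members Smad9 was the lowest per kilobase in every group except young liver, where it ranked 7 of 10.

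The tissue difference in Smad9 was tested. Its choice rested on age and not on tissue, but it used the same young libraries, so the young comparison is not free of it. The DMSO libraries had no part in the choice. Smad9 was lower in young kidney than in young liver by 2.68 ± 0.31 (SE) on the log2 scale (6.39-fold, edgeR adjusted p = 8.99e-07), with every kidney library below every liver library. In the mice given DMSO the difference was −2.38 ± 0.46 (SE, 5.21-fold, adjusted p = 0.000156 in edgeR). In these other animals too the highest kidney, 2.46 CPM, lay under the lowest liver, 6.89 CPM. Both calls held without each library in turn and under each other setting, with the smallest differences, −1.60 and −1.41, when library totals took the place of TMM. The age effects on Smad9 in liver and kidney, −2.36 and −1.97 on the log2 scale, are the values it was chosen on, so their difference is given no test.

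Of the ID genes, the targets of the receptor SMADs, Id2 passed an adjusted p of 0.05 in old against young kidney, and Id1 and Id3 did not. Id2 was at 283, 281, 299 and 214 CPM in young kidney. It was at 199, 165, 193 and 147 CPM in old kidney. All old kidneys lay below all young ones, and the log2 fold change was −0.56 ± 0.13 (SE, 1.47-fold lower, edgeR adjusted p = 0.0233). The adjusted p rose above 0.05, to 0.063 at the lowest, without young kidney replicate 1, 2 or 3 or old kidney replicate 4, and was 0.0269 without old kidney replicate 2. Since a call also asked for a fold above 2 or below 0.5, Id2 was not called. Id1 was at 40.5, 43.5, 42.3 and 56.2 CPM in young kidney. It was at 39.0, 13.7, 34.0 and 17.4 CPM in old kidney, again with no overlap but with a wide spread (log2 fold change −0.77 ± 0.29, SE, adjusted p = 0.112 in edgeR and 0.0499 with DESeq2). Id3, at 64.9 to 82.8 CPM in young and 40.9 to 71.3 CPM in old kidney, had a log2 fold change of −0.37 ± 0.16 (SE, adjusted p = 0.163).

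Of the 10 members 9 had a negative fold change in kidney, and Smad1 was the exception. Their median was −0.42 on the log2 scale, beside 0.02 over all 14495 genes tested. Leaving aside Smad9, which was chosen on this contrast, Id2 was the member that passed an adjusted p of 0.05, where 11.5% of all genes did (3.36% lower). With the fold threshold none of the other 9 was called, where 6.08% of all genes were (0.407% lower). Smad6, Id1 and Id2 had all 4 old kidneys below all 4 young ones, against 10.3% of all genes, and no member had them above, against 9.42%. Smad9 is in the count of negative fold changes and in the median by its choice.

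In liver no ID gene passed the test with age. Id3 was at 64.8, 46.6, 45 and 77.9 CPM in young liver. It was at 228, 87.3, 141 and 86.5 CPM in old liver, so every old liver lay above every young one. The log2 fold change was 1.23 ± 0.33 (SE, 2.35-fold, edgeR adjusted p = 0.0800), and over the other settings of the fit the adjusted p ran from 0.0111, with DESeq2, to 0.118. Leaving out each library gave 0.0484 to 0.232, with the lowest without old liver replicate 4, and without old liver replicate 1, the highest, the log2 fold change was 0.86. Id2 had 139 to 226 CPM in young and 208 to 326 CPM in old liver (log2 fold change 0.41 ± 0.21, SE, adjusted p = 0.409 in edgeR). Id1 overlapped widely, with 6.31 to 30.8 CPM in young and 12 to 44.2 CPM in old liver (adjusted p = 0.910). No member other than Smad9, which was chosen on this contrast, was called in liver, where 2.13% of all 12537 genes were. That share rests on single libraries, since 212 genes were called higher and 55 lower with all of them, 48 and 28 without young liver replicate 3 and 365 and 79 without old liver replicate 1, and 267 and 58 without old liver replicate 4, the library that moved it least. Id3 was the member with all old livers above the young ones, against 5.87% of all genes, and no member but Smad9 had them below, against 4.21%.

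**Figure D2:**
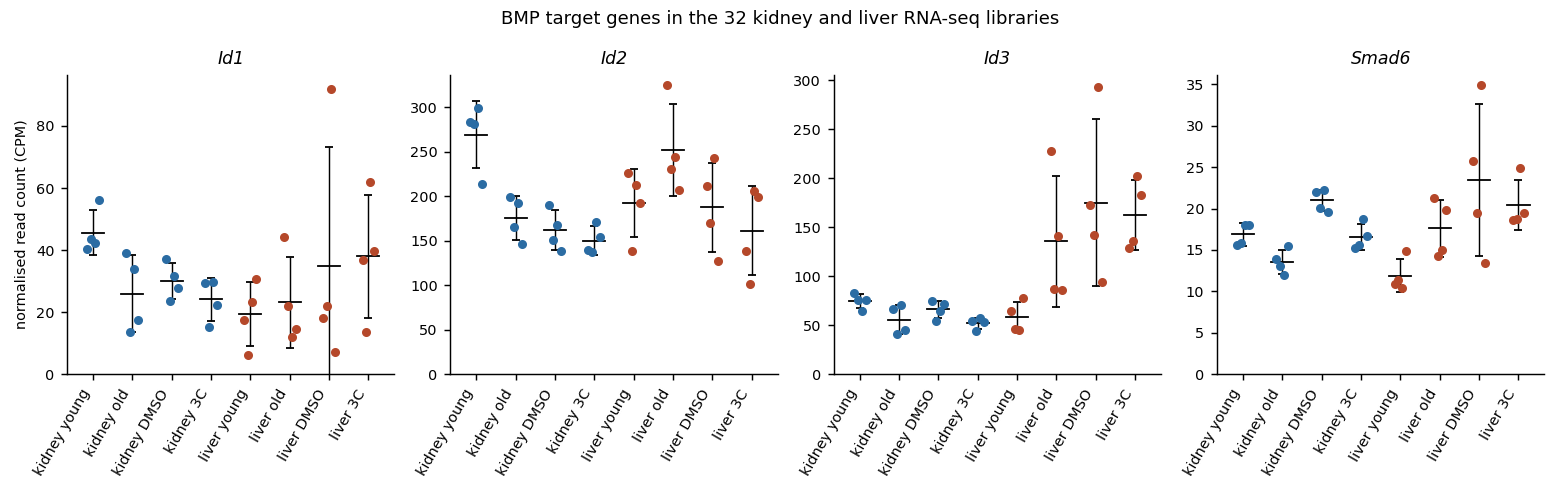
CPM of Id1, Id2, Id3 and Smad6 on linear axes from 0, with a point for each of the 32 kidney and liver RNA libraries and bars for the mean ± SD of each group of 4, a bar that would reach below 0 being cut there. All old kidneys lie below all young ones in Id1, Id2 and Smad6, all old livers lie above all young ones in Id3, and liver given DMSO replicate 3 stands out in Id1 at 91.8 CPM.

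The liver libraries of a group also differed among themselves in the BMP targets. The library highest in Id1 was replicate 4 of young liver, replicate 1 of old liver, and replicate 3 of liver given DMSO and of liver given 3C. In all 4 groups the same library was also the highest in Id3 and Smad6, as it was for 3.53% of 12363 genes. Its Id1 level was 30.8, 44.2, 91.8 and 61.8 CPM in these groups, against at most 23.4, 21.9, 22.1 and 39.9 CPM in their other libraries. The summed hepatocyte markers were highest in these libraries too, and the genes that shared the pattern were short, with a median exon length of 2359 bases against 4507 for the others, with Id1 at 1160, Id3 at 1791 and Smad6 at 3205. The part of this in the result was not tested. In kidney no other member followed Id1 in all 4 groups, as 0.349% of 14347 genes did. Over the 16 liver libraries centred on their group means, log2 levels of Id1 and Id3 had r = 0.75 and those of Smad6 and Id3 r = 0.77. Over the 16 kidney libraries these were 0.86 for Id1 and Id3 and −0.20 for Smad6 and Id3. Pairs of members that are not targets reached more, with 0.91 for Smad5 and Bmpr2 in liver and 0.94 for Smad5 and Bmpr1a in kidney. Bmpr1a had −0.63 with Id3 in liver and −0.60 with Id1 in kidney. The genes of a point share its library and depth, so these values are a description.

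The difference between the age effects in liver and kidney was itself tested in a joint fit of the 4 groups. The difference, liver minus kidney, was 1.63 ± 0.40 (SE) on the log2 scale for Id3 (edgeR adjusted p = 0.0502). It was 1.0 ± 0.26 (SE) for Id2 (adjusted p = 0.0683) and 0.87 ± 0.24 (SE) for Smad6 (adjusted p = 0.0769). Of the 9 members other than Smad9 none passed 0.05, where 1.72% of all 15036 genes did. These 3 genes lay close to the threshold, and other settings moved them across it. DESeq2 called Id2, Id3 and Smad6 with adjusted p of 0.0116, 0.00857 and 0.0257. Id3 passed without old liver replicate 1, 2 or 4 (adjusted p = 0.0469, 0.0411 and 0.0332). For Id1 the difference of 1.06 ± 0.63 (SE) had an adjusted p of 0.489.

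The inhibitory SMADs are feedback targets that block the receptors. Smad6, the more selective for BMP receptors, was at 15.6, 15.8, 18 and 18.1 CPM in young kidney. It was at 13.9, 13.1, 11.9 and 15.4 CPM in old kidney, all below the young ones, with a log2 fold change of −0.25 ± 0.14 (SE, adjusted p = 0.253 in edgeR). In liver it was at 10.4 to 14.9 CPM in young and 14.3 to 21.3 CPM in old libraries, which overlapped (log2 fold change 0.58 ± 0.21, SE, adjusted p = 0.214). Smad7, which also acts on TGF-beta receptors, had log2 fold changes of −0.23 ± 0.15 (SE) in old kidney and of −0.11 ± 0.23 (SE) in old liver (adjusted p = 0.331 and 0.925).

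Neither receptor gene passed the test with age in edgeR with all libraries. Bmpr1a, a type I receptor, had log2 fold changes of −0.25 ± 0.19 (SE) in old kidney and of −0.19 ± 0.19 (SE) in old liver (edgeR adjusted p = 0.404 and 0.772). Bmpr2, the type II receptor, was at 39.6 to 70.2 CPM in young and 33.3 to 48.2 CPM in old kidney (log2 fold change −0.47 ± 0.19, SE, adjusted p = 0.133). Without old kidney replicate 2, its highest old library, the groups did not overlap and the log2 fold change was −0.61 (adjusted p = 0.0339), and it passed without young kidney replicate 4 too (adjusted p = 0.048). In liver its log2 fold change was 0.01 ± 0.27 (SE, edgeR adjusted p = 0.998). An antisense gene overlaps 4.57% of the exons of Bmpr1a, and its reads cannot be told apart from those of Bmpr1a because counting did not use strand.

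**Figure D3:**
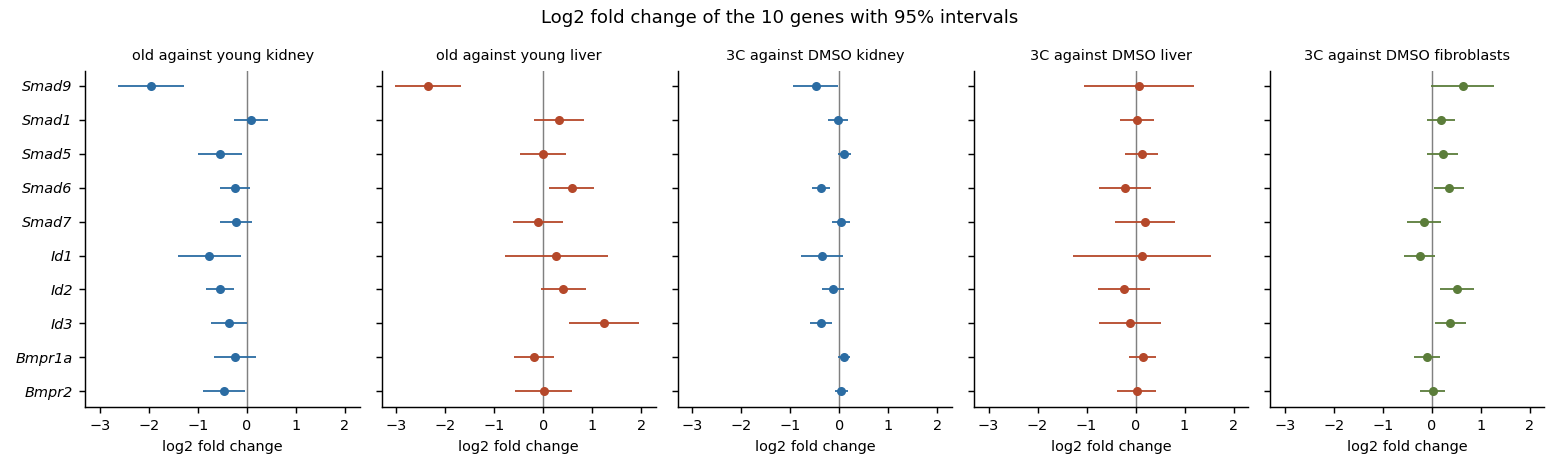
Log2 fold change of each of the 10 members with its 95% interval from edgeR in 5 comparisons, old against young in kidney and in liver and 3C against DMSO in fibroblasts, kidney and liver, with 0 marked. Smad9 lies at −1.97 and −2.36 in the age comparisons, the values it was chosen on, so its intervals there are not a test. Id3 lies at −0.37 in kidney and at 1.23 in liver with age. The intervals for Smad9 and Id1 in liver given 3C span more than 2 log2 units.

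Other BMP genes, from a list of 48 ligands, receptors, co-receptors, antagonists, partners and targets, mostly did not pass the test with age. In kidney 35 were tested, and those that rose at an adjusted p under 0.05 were Acvrl1, an endothelial type I receptor (log2 fold change 0.58 ± 0.13, SE, adjusted p = 0.0189), and Eng, its co-receptor (0.52 ± 0.14, SE, adjusted p = 0.0340). These are 2 of 35, where 8.15% of all genes rose at an adjusted p under 0.05. None of the 35 fell, where 3.36% of all genes did, and none passed the fold threshold. The median of the list was −0.14, beside 0.02 over all genes. Id4, the remaining ID gene, was at 44.0 to 50.6 CPM in young and 20.1 to 39.8 CPM in old kidney (log2 fold change −0.61 ± 0.18, SE, adjusted p = 0.0533). Smad4, the shared partner, had a log2 fold change of −0.40 ± 0.14 (SE, adjusted p = 0.101). Atoh8, a BMP target, and the ligand gene Bmp6 had −0.16 ± 0.25 and −0.14 ± 0.12 (SE, adjusted p = 0.686 and 0.462).

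The TGF-beta arm, which signals through other receptor SMADs, was read beside it with 14 genes, of which 13 were tested in kidney. Tgfb1, the ligand gene, rose 2.0-fold (edgeR adjusted p = 0.00729) and Inhbb, an activin subunit gene, 2.07-fold (adjusted p = 0.0479). Past both thresholds 3 of the 13 were higher, not all of them reported here, where 5.68% of all genes were, and none was lower, where 0.407% were. The call of Tgfb1 was lost without young kidney replicate 1, young kidney replicate 3 or old kidney replicate 4, and that of Inhbb was lost without any one library other than old kidney replicate 3. Fst of the BMP list was called without old kidney replicate 2, and Fst and Runx2 without old kidney replicate 3.

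In liver 34 genes of the BMP list were tested and 2 rose past both thresholds, where 1.69% of all genes did. Acvr2b, a type II receptor gene, was at 8.65, 9.32, 6.43 and 5.88 CPM in young liver. It was at 14.7, 22.7, 24 and 22 CPM in old liver (log2 fold change 1.48 ± 0.23, SE, edgeR adjusted p = 0.0110). The age effect on Acvr2b differed between the tissues by 2.01 ± 0.31 (SE, adjusted p = 0.00416), as did those on the co-receptor gene Rgma (2.34 ± 0.55, SE, adjusted p = 0.0405) and the antagonist gene Chrd (1.30 ± 0.32, SE, adjusted p = 0.0477), the only ones of 41 tested, where 1.72% of all genes passed. Bmper, a secreted BMP modulator, rose from 0.615 to 1.5 CPM to 3.56 to 19.0 CPM (log2 fold change 3.02 ± 0.56, SE, adjusted p = 0.0220), a low gene whose call was lost without any one young liver or without old liver replicate 3. The call of Acvr2b was lost without young liver replicate 3, which left 0 of the list called. Hamp, the hepcidin gene, was at 1167, 768, 684 and 1331 CPM in young liver. It was at 4800, 1759, 1633 and 1383 CPM in old liver, all above the young, and old replicate 1, also the highest in Id1 and Id3, set much of the mean. Its log2 fold change was 1.30 ± 0.41 (SE, adjusted p = 0.141 in edgeR), and DESeq2 called it. Gdf2, the gene of the circulating ligand BMP9, was at 39.4 to 48.5 CPM in young and 42.0 to 45.3 CPM in old liver (log2 fold change −0.03 ± 0.15, SE, adjusted p = 0.978). Id4, Atoh8, Bmp6 and Smad4 did not pass in liver (log2 fold changes 0.90, −0.21, 0.40 and −0.09, adjusted p from 0.449 to 0.930). Of the TGF-beta arm Ccn2, a matrix protein gene, rose 1.99-fold at an adjusted p of 0.0470, under the fold threshold.

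The agent 3C was compared with DMSO in fibroblasts and in both organs, and no member was called in any of them. In fibroblasts, where 1.87% of all 13449 genes were called, Smad9 was at 2.69, 1.68 and 1.48 CPM with DMSO. It was at 3.82, 2.62 and 2.67 CPM with 3C, which overlapped (log2 fold change 0.63 ± 0.29, SE, edgeR adjusted p = 0.254). Id2 was low in these cells, at 16.8 to 24.7 CPM with DMSO and 28.4 to 32.4 CPM with 3C, with no overlap (log2 fold change 0.52 ± 0.15, SE, adjusted p = 0.0890). DESeq2 put it at an adjusted p of 0.04997 and the fit with no filter at 0.0484. Smad6 was at 12.4 to 13.6 CPM with DMSO and 14.4 to 18.8 CPM with 3C (log2 fold change 0.36 ± 0.14, SE, adjusted p = 0.177). Id2 and Smad6 were the members whose 3C libraries all lay above the DMSO ones, against 12.1% of all genes, and none lay below, against 13.5%. Id3 had a log2 fold change of 0.38 ± 0.14 (SE, adjusted p = 0.168) and Id1 one of −0.25 ± 0.15 (SE, adjusted p = 0.377).

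Among the other BMP genes in fibroblasts, the ligand gene Bmp4 rose from 2.52, 3.71 and 3.11 CPM with DMSO to 9.56, 11.4 and 11 CPM with 3C (log2 fold change 1.78 ± 0.19, SE, edgeR adjusted p = 0.000871). Bmper fell by 1.01 (adjusted p = 0.00547) and Bmpr1b, a type I receptor gene, by 1.15 on the log2 scale (adjusted p = 0.0136), both past the fold threshold as well. Gdf6, a ligand gene, fell by 0.90 (adjusted p = 0.0157), under the fold threshold. Of the 35 tested 5 passed the adjusted p, not all of them reported here, where 4.22% of all genes did. Those that did not pass included Id4, Smad4, Atoh8 and Bmp6 (adjusted p from 0.0959 to 0.596). Of 13 genes of the TGF-beta arm Inhba fell by 0.56 on the log2 scale (adjusted p = 0.0290), under the fold threshold. Without DMSO replicate 3 or 3C replicate 2 the calls of Bmper and Bmpr1b were lost. Sums of pericyte and smooth muscle markers (2815 to 3043 CPM with DMSO, 1919 to 2306 with 3C) and of macrophage markers (63.4 to 78.6 against 35.6 to 52.8) were lower in all 3C fibroblasts, and their part in these values was not tested.

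In kidney Smad9 was at 2.29, 1.73, 2.46 and 1.67 CPM with DMSO. It was at 1.34, 1.26, 1.71 and 1.62 CPM with 3C (log2 fold change −0.49 ± 0.21, SE, edgeR adjusted p = 0.39), and the groups overlapped by 1 library, replicate 3 with 3C. Smad6 was at 19.6 to 22.3 CPM with DMSO and 15.2 to 18.8 CPM with 3C, all below (log2 fold change −0.37 ± 0.08, SE, adjusted p = 0.195 in edgeR and 0.0295 with DESeq2). Id3 had a log2 fold change of −0.37 ± 0.10 (SE, adjusted p = 0.227) and Id1 one of −0.35 ± 0.19 (SE, adjusted p = 0.523). Sums of macrophage (304 to 324 CPM with DMSO, 213 to 298 with 3C), fibroblast (317 to 420 against 171 to 285) and pericyte and smooth muscle markers (193 to 243 against 125 to 190) were also lower in all 3C kidneys, and their part in these values was not tested. Bmpr1a had all 3C libraries above the DMSO ones by a small margin (41.9 to 48.6 against 49.2 to 52.6 CPM). Of all genes 4.18% lay above and 2.98% below without overlap. edgeR called 0 of the 14974 genes tested, with 1786 at an unadjusted p under 0.05, and DESeq2 put 66 higher and 148 lower under an adjusted p of 0.05. Immediate early genes summed to 491 CPM in kidney given DMSO replicate 1 and to 215 to 242 CPM in the other 3. Without that library the log2 fold changes of Smad9, Smad6 and Id3 were −0.43, −0.35 and −0.32 (adjusted p = 0.499, 0.241 and 0.304), and the part of these genes in the results was not tested.

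In liver no member passed the test with 3C. Smad9 was at 18, 10.9, 7.30 and 6.89 CPM with DMSO. It was at 26.8, 5.99, 7.79 and 5.14 CPM with 3C (log2 fold change 0.07 ± 0.51, SE, 95% interval −1.05 to 1.19). Liver given 3C replicate 1 decided the sign, since without it the log2 fold change was −0.80. All 10 members had an adjusted p of 0.9996 in edgeR, and no member separated the groups, as 2.28% of all genes did. edgeR called 0 of 13042 genes, with 436 at an unadjusted p under 0.05, and DESeq2 put 6 under an adjusted p of 0.05. Of the BMP list 36 genes were tested in each organ, and neither they nor the TGF-beta arm held a call. In kidney Atoh8, Bmp6, Id4 and Smad4 had log2 fold changes of −0.45, 0.17, −0.11 and −0.10 with 3C (adjusted p from 0.358 to 0.748), and in liver Gdf2, Hamp and Atoh8 had −0.34, −0.18 and −0.37 and Smad4, Id4 and Bmp6 had 0.16, 0.04 and 0.01 (adjusted p = 0.9996). The effects of 3C in liver and kidney were also set against each other, and none of 15526 genes differed in edgeR (554 at an unadjusted p under 0.05) or in DESeq2.

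Between tissues several members differed, in a comparison where most genes did. In young mice Smad9 and Id1 were called between kidney and liver, as 42.9% of all genes were. Id1 was higher in kidney by 1.22 ± 0.45 (SE) on the log2 scale (edgeR adjusted p = 0.0275), a call lost without young kidney replicate 4 or young liver replicate 1 or 2. With the replicate numbers as a block, which matched these libraries for all but replicate 1, Bmpr2 was also higher in kidney (adjusted p = 0.0150 against 0.0826 without). At an adjusted p under 0.05 alone, which 61.5% of all genes passed, Smad5, Smad6, Smad7 and Id2 were also higher in kidney and Smad1 was lower (log2 differences 0.56, 0.50, 0.71, 0.48 and −0.48). In the mice given DMSO, Smad9 and Id3 were called, with 42.9% of all genes, and Id3 was lower in kidney by 1.38 ± 0.25 (SE) on the log2 scale (adjusted p = 7.91e-05). Smad5, Smad7, Bmpr1a and Bmpr2 were higher and Smad1 lower at an adjusted p under 0.05 alone, as were 71.7% of all genes. Young liver had 45 to 77.9 CPM of Id3 and liver given DMSO 94.1 to 293, while young kidney had 64.9 to 82.8 and kidney given DMSO 54.5 to 74.6. Scaling on the library total in place of TMM moved the median of all genes from 0.11 to 1.19 in young mice and from 0.08 to 1.08 with DMSO. Members moved up with it, Smad1 to 0.58 and 0.38, and with DMSO Smad6, Id1 and Id2 to 0.88, 0.89 and 0.81 and Id3 to −0.36 (adjusted p = 0.131). The signs of Smad1, Smad6, Id1 and Id2 turned and the call of Id3 ended with this shift of all genes, and each of these values lay below the median of all genes under both scalings.

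Other BMP genes differed between tissues by more than most members. Gdf2 was at 39.4 to 48.5 CPM in young liver and had no read in the 4 young kidneys, and Hamp was at 684 to 1331 CPM in young liver with no read there. Atoh8 was at 32.6 to 93.5 CPM in young liver and 3.79 to 5.40 in young kidney (log2 difference −3.48 ± 0.37, SE, adjusted p = 3.35e-07). Bmp6 went the other way, at 45.7 to 59.2 CPM in young kidney and 6.32 to 10.7 in young liver (2.56 ± 0.21, SE, adjusted p = 1.74e-08), as did Id4 (4.43 ± 0.39, SE, adjusted p = 3.85e-08). Sostdc1, a secreted antagonist gene, was at 73.8 to 105 CPM in young kidney and had no read in the 4 young livers. Of the ligand genes Bmp7 was higher in young kidney (38.1 to 48.9 against 0.701 to 2.08 CPM), while Bmp2 (30.8 to 34.2 against 1.97 to 3.54) and Bmp5 (16.4 to 23.8 against 0.289 to 0.660) were higher in young liver. Their adjusted p in edgeR ran from 2.85e-09 to 5.89e-09. Ccn2 of the TGF-beta arm was higher in young kidney too (90.8 to 110 against 9.60 to 16.9 CPM, log2 difference 2.80 ± 0.21, SE, adjusted p = 6.28e-09). Smad4 differed by 0.08 ± 0.16 (SE, adjusted p = 0.689). Of 41 genes of the list tested, 16 were called higher and 11 lower in young kidney, beside 26.5% and 16.4% of all genes. Of 43 tested in the mice given DMSO 21 were higher and 10 lower, beside 27.3% and 15.6%. Scaling on library totals gave 24 higher and 9 lower in young mice (8313 and 1301 of all genes, in place of 3981 and 2470) and 28 and 9 with DMSO (8193 and 1249, in place of 4231 and 2429). Those with the smallest p there were Sostdc1 and Bmp4, higher in kidney, and Gdf2 and Hamp, lower. Bmp6, Id4, Atoh8 and Smad4 had log2 differences of 2.50, 3.17, −3.68 and 0.07 with DMSO, and Smad4 was the one that did not pass (adjusted p = 0.653 in edgeR). There the activin gene Inhba was lower in kidney (0.429 to 1.02 against 19.0 to 33.2 CPM) and the receptor gene Tgfbr2 higher (67.2 to 81.1 against 19.6 to 23.0 CPM).

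ATAC-seq, which marks open chromatin, had not been used to choose the genes. Peaks had been called per library, and the fold enrichment of the highest peak within 1 kb of a start site was compared. Every old kidney library had fewer distinct peaks (93072 to 108970) than every young one (115836 to 128395), while in liver the ages overlapped. The part of this in the peak values below was not tested. A promoter peak was present in all 12 libraries for 9 of the 10 members, beside 52.4% of 21864 genes, and Id3 lacked one in young liver replicate 1. At Smad9 the kidney peak had fold enrichments of 8.66, 8.50 and 6.46 in young libraries. It had 5.32, 4.24 and 5.96 in old libraries, so the groups did not overlap (means 7.87 and 5.17, exact permutation test, two-sided p = 0.1, the smallest that 3 against 3 allows). In liver the Smad9 peak had 3.91, 4.62 and 3.96 in young and 3.68, 5.87 and 3.94 in old libraries, which overlapped (exact p = 0.9). The lower RNA of Smad9 in old liver went with no separation of its promoter peak. In kidney Smad1 also lay below in old libraries (12.4 to 10.6 in the mean), and Id2 (3.40 to 4.71) and Id3 (3.6 to 4.31) lay above, each at the same exact p of 0.1. Old kidneys all below made up 6.61% of genes and all above 10.2%. The direction at Id2 was opposite to that of its RNA in kidney. In liver no member separated, against 9.71% of genes.

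**Figure D4:**
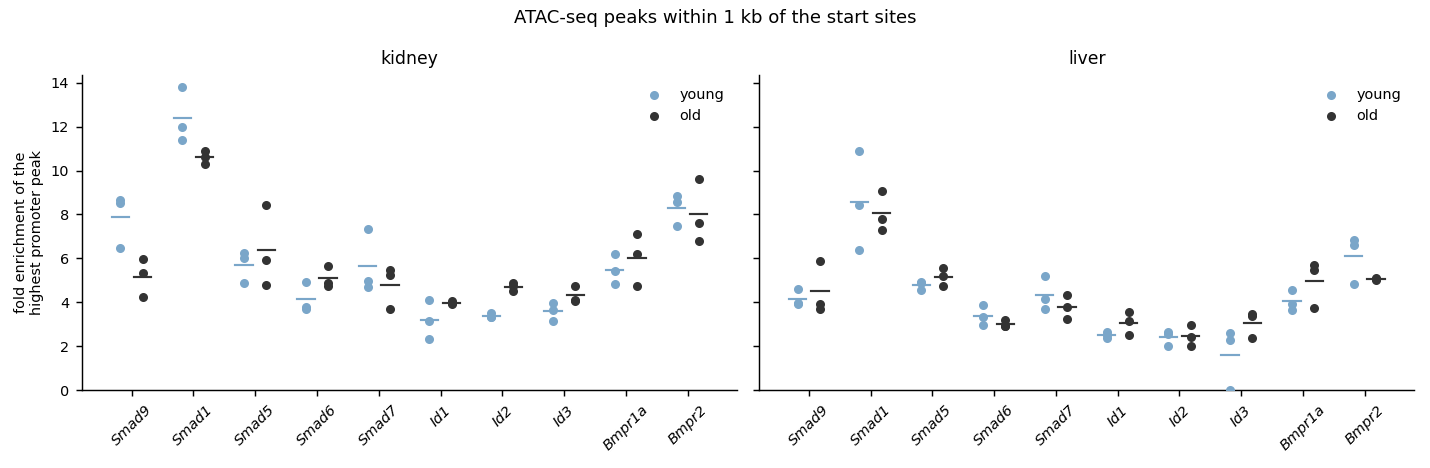
Fold enrichment of the highest ATAC peak within 1 kb of a start site of each member, with a point for each of the 3 young and 3 old libraries in kidney and in liver, a library without a peak being set at 0. In kidney Smad9 lies at 6.46 to 8.66 in young and 4.24 to 5.96 in old libraries, and in liver the 2 ages overlap.

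Regions within 10 kb of the members were merged over the 6 libraries of a tissue, and a region was counted as gained or lost where a peak was present in all 3 libraries of one age and in none of the other. At Smad9 6 kidney and 13 liver regions were found, and none was gained or lost. Over the 10 members 162 kidney regions held 4 lost ones, where 1.52% of all kidney regions were lost, and none gained, where 0.323% were. Of the 4, 2 lay at Smad5, 1 at Bmpr1a and 1 at Id3. The part of the fewer peaks of old kidney libraries in these losses was not tested. In liver 179 regions held 2 gained (0.543% of all liver regions were) and 1 lost (0.985% were). The gained ones were centred at −6804 bases from the Id1 start (chr2:152729292-152729603) and −8851 bases from the Id3 start (chr4:136134353-136134940), with mean fold enrichments of 2.75 and 2.6 in old liver.

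The composite element shown at the outset was found in the middle 300 bases of 9 of 162 kidney regions (5.56%), beside 0.228% of all 255698 kidney regions. In liver it was in 7 of 179 regions (3.91%), beside 0.182% of 353652. These came to 10 distinct sites in 5 genes, Id1, Id2, Id3, Smad1 and Smad6, since most sites were open in both tissues. The ID genes held 7 of the 10. ID genes are known BMP targets and the composite is a known BMP response element, so these shares are a description and not a test. In 300-base RefSeq promoters the share was 0.667%, and of the 8 members with such a sequence Smad6 held one. GGCGCC was in 10.5% of the kidney and 8.94% of the liver regions of members, beside 3.41% and 2.49% of all regions. CAGAC, a short motif, was in 59.9% and 58.7%, beside 55.4% and 54.3%. Both strands were searched, the first part of the composite can be GGCGCC, and its end overlaps CAGAC read on the other strand. The Id1 element at chr2:152735206-152735220 lay in a region with a peak in all 6 kidney libraries, in 1 of 3 young livers and in all 3 old livers. In liver the Id2 and Id3 elements before the start and the one in Id3 had peaks in 3 young and 2 old libraries. Their mean fold enrichments were 2.14, 2.86 and 2.46 in young and 1.37, 2.14 and 1.32 in old livers. The Id2 element after the gene had a peak in 3 young and 3 old livers. The Smad6 element with a liver region had one in 2 young and 3 old livers. The region of the Id1 element after the gene had a peak in all 12 libraries. At Id3 the element after the gene lay in a region open in all 6 kidney libraries and was in no liver window. A match is a description of the letters and not of binding.

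**Figure D5:**
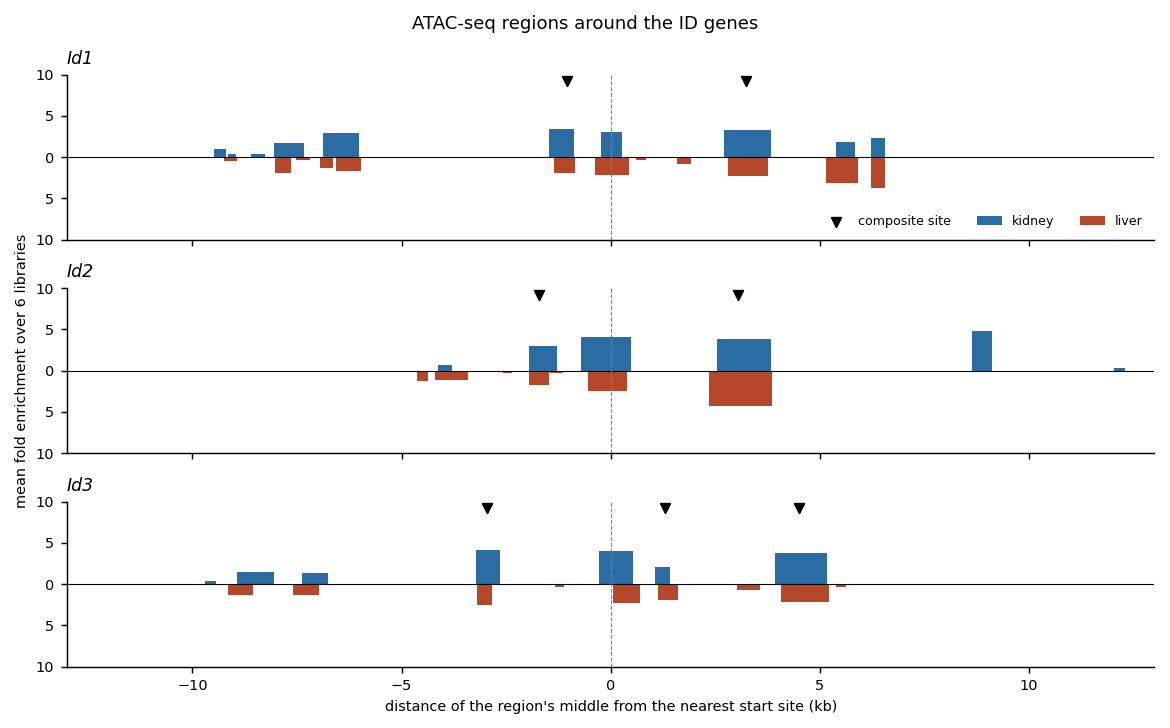
ATAC regions within 10 kb of Id1, Id2 and Id3 by distance from the nearest start site in kb. The mean fold enrichment of the young and old libraries is upward for kidney and downward for liver, a library without a peak counting as 0. Triangles mark the 7 composite elements, which lie from 2.95 kb before to 4.49 kb after the start sites.

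The genes whose pattern was most like that of Smad9 were found by Pearson r of log2 CPM over the 16 young and old libraries, each centred on its tissue mean, among 11692 genes. They were Acot12, an acetyl-CoA hydrolase gene (r = 0.937), Fmo2, a flavin monooxygenase gene (0.929), Abcd3, a peroxisomal transporter gene (0.924), Grsf1, a mitochondrial RNA-binding protein gene (0.919), and Acsm5, a mitochondrial acyl-CoA synthetase gene (0.912). The libraries share their age groups, and this contrast chose Smad9, so the values carry no p. Fmo2 was at 333 to 413 CPM in young and 179 to 210 CPM in old kidney, and at 108 to 122 CPM in young and 28.6 to 63.7 CPM in old liver. By Spearman rank the 5 leading genes were different ones, with none shared. Among the members Bmpr1a was the nearest at r = 0.531, and Id2 had 0.892 within kidney and −0.556 within liver, each over 8 libraries.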

How the data were processed

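RNA libraries of 10 groups and ATAC libraries of 4 groups were used as deposited. The authors made gene counts from reads with Trimmomatic 0.39, HISAT2 2.2.1 on mm10 and HTSeq 0.12.4 with strand ignored, per the labels' processing notes and the study's methods. For ATAC-seq the authors aligned with Bowtie2 2.3.5.1 and called peaks per library with MACS2, whose deposited files give a fold enrichment (a ratio) and −log10 p and q values for each peak. The deposited counts held 5.85 to 19.1% of reads outside genes and 1.72 to 2.81% that were ambiguous, both left out of library sizes. Tallies of reads with several matches were above 0 in 16 of 16 young and old libraries and in 0 of 22 DMSO and 3C libraries, so the 2 series were not tested against each other. Of 54 replicate pairs none was identical, and the lowest chi-square per degree of freedom was 7.78.

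Counts were tested with the quasi-likelihood test of edgeR 4.0.16 (R 4.3.3) with TMM factors and filterByExpr at a minimum count of 10, and p-values were adjusted by Benjamini-Hochberg over all genes tested. A call needed an adjusted p under 0.05 and a fold above 2 or below 0.5, and a difference between effects needed the adjusted p alone. The 2-group comparisons used their own groups, and the tissue comparisons and differences between effects used 4 groups together. Intervals are 95%. The scripts were tested on simulated data. Alternatives were DESeq2 1.42.0, RLE factors, fits without the filter or with genes of a mean of at least 1 CPM, the replicate number as a block, and leaving out each library, and scaling on library totals was added after seeing the data.

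Same-numbered young kidney and young liver libraries had deviations with r = 0.12, 0.219, 0.104 and 0.452, and replicate 1 matched another number better. In 3C kidney and liver every number matched best, with r = 0.158, 0.218, 0.0939 and 0.108. In the other pairs of groups at least 1 number had an r of 0.1 or less. The numbers thus do not settle which libraries are paired. The members and gene lists were chosen with earlier results of these data known, and the named genes are the members, in each comparison up to 6 genes of the lists past both thresholds with the smallest p, the list genes Id4, Smad4, Atoh8, Bmp6, Gdf2 and Hamp where tested, and the 5 genes most like Smad9. Other genes named were chosen after their values were seen, and some list genes are not reported here, though the counts include them. Gene models came from GENCODE vM21 and promoters from RefSeq (GRCm38.p6), which held 8 of the 10 members. Levels per kb used the longest coding transcript. Figures were drawn with matplotlib 3.10.9, and peaks and sequences were read with Python 3.11.15, pandas 2.3.3 and pysam 0.24.0.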

Additional observations from a re-analysis of the deposited data

Results flagged for a closer look

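Of 80 groups of 4 libraries, 8 for each of the 10 genes, 2 held a library far from the other 3, where chance alone gives about 1 in 20, and groups of 3 were not tested. Smad9 in liver given 3C was at 26.8 CPM in replicate 1 and at 5.14 to 7.79 CPM in the others. Smad6 in liver given 3C was at 24.9 CPM in replicate 3 and at 18.7 to 19.4 CPM in the others.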

How the results depend on the processing

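Of 90 log2 differences of members, under 540 alternatives that kept all libraries and 1020 that left one out, 502 and 914 kept their direction and side of the threshold, 2 and 38 lost it, 18 and 10 gained it, and 18 and 58 reversed. The reversed ones had a main size of at most 0.61, and the cause was not tested. With library totals Smad5, Smad7, Smad1 and Bmpr2 turned to 0.082 and 0.0008 in old liver and to −0.0032 and −0.022 in liver given 3C. With totals Smad1 was 0.5833 between young kidney and liver, and with DMSO Smad1, Smad6, Id1 and Id2 were 0.3777, 0.8789, 0.8946 and 0.8149. Bmpr2 in old liver was −0.0078 with DESeq2, −0.0076 with RLE factors, −0.0011 without a filter and −0.015 with the replicate block, and Smad5 there was 0.0149 at a minimum mean of 1 CPM. The replicate block also turned Smad9 in liver given 3C to −0.148, Id1 between DMSO tissues to 0.3531 and the difference of 3C effects on Smad5 to −0.0005, which was −0.0002 without a filter.

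Leaving out each library, reversed log2 differences ran from −0.0255 to 0.15 for Smad1 in old kidney, and in old liver from −0.0847 to 0.1653 for Smad5, −0.2304 to 0.0782 for Smad7, −0.2551 to 0.6215 for Id1 and −0.1272 to 0.21 for Bmpr2. With 3C they ran from −0.0235 to 0.0953 for Bmpr2 in fibroblasts, and in kidney from −0.0935 to 0.0293 for Smad1 and −0.0173 to 0.1038 for Smad7. In liver given 3C they ran from −0.8036 to 0.4449 for Smad9, −0.0593 to 0.1091 for Smad1, −0.4103 to 0.028 for Smad6, −0.1088 to 0.3686 for Smad7, −0.2262 to 1.235 for Id1, −0.337 to 0.2279 for Id3 and −0.0987 to 0.1513 for Bmpr2. The difference of age effects ran from −0.0343 to 0.2622 for Bmpr1a. Differences of 3C effects ran from −0.3017 to 0.9185 for Smad9, −0.0339 to 0.1297 for Smad1, −0.0719 to 0.1109 for Smad5, −0.043 to 0.4066 for Smad6, −0.1382 to 0.3192 for Smad7, −0.2546 to 0.0604 for Id2, −0.0118 to 0.1354 for Bmpr1a and −0.1315 to 0.1034 for Bmpr2. Between DMSO tissues they ran from −0.3406 to 0.1095 for Smad6 and −0.5389 to 0.9353 for Id1.

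Members called, Smad9 being 1 of them by its choice in the age comparisons, went from 1 to 2 in old kidney at the adjusted p alone (Id2 added), and from 1 to 2 in old liver with DESeq2 or library totals (Id3 added), with 1 to 2 when a library was left out. Members whose age effect differed went from 0 to 3 with DESeq2, 1 without a filter, 1 with the replicate block (Id3, adjusted p = 0.0150), 2 with totals and 0 to 1 when a library was left out. Members called between young tissues went from 2 to 7 at the adjusted p alone, 9 with totals and 1 to 2 when a library was left out, and between DMSO tissues from 2 to 7 and 5. Listed pathway genes called, those not reported here included, went from 3 to 5 in old kidney at the adjusted p alone, 1 with the replicate block and 1 to 5 when a library was left out, from 2 to 4 in old liver with DESeq2 and 0 to 2 when a library was left out, and from 5 to 3 to 6 in fibroblasts when a library was left out. Genes at an adjusted p under 0.05 were 1182 higher and 487 lower in old kidney, 1611 and 1385 with DESeq2 and 844 and 213 with the replicate block, and in old liver 239 and 70, 619 and 239 with DESeq2, 91 and 48 with the block, and from 48 and 29 to 453 and 135 when a library was left out. With totals 7 of 10 members kept their highest group and 6 their lowest, Smad9 both. Depth limits Smad9 most in old kidney, where its highest level was 1.11 CPM.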
